A study of Arabidopsis thaliana with 6 samples.

Results

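The enzyme genes of jasmonate synthesis and the genes of the vegetative storage proteins (VSPs) were followed in RNA sequencing data from Arabidopsis thaliana of genotype Col-0, the wild type, and of the cdc5 mutant. The set holds 10 genes chosen by their gene identifiers, namely LOX2, LOX3, LOX4, LOX6, AOS, AOC1, AOC2, OPR3, VSP1 and VSP2. They are 10 of the 27947 genes and account for 14 of the 45666 transcripts in the deposited table. Their coordinates are those of the table, which match the TAIR10.1 annotation for all 10. Each genotype has 3 libraries, all labelled as rosette leaves, with no treatment, plant age or allele given. The numbers that end the mutant titles can be read as replicates or as names of alleles, and in the latter case a cdc5 mean would span alleles. Whether the libraries derive from different plants is not stated. The p-values therefore reflect library-to-library spread alone, and that spread may be technical. The study's title asks how CDC5, a MYB-related protein that works with the spliceosome, affects flowering time.

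Jasmonate is a lipid hormone made from linolenic acid of the chloroplast membranes. A lipoxygenase of the LOX2, LOX3, LOX4 and LOX6 class adds oxygen to the fatty acid, the allene oxide synthase AOS converts the product to an unstable epoxide, and an allene oxide cyclase (AOC) closes its ring to give OPDA. OPDA leaves the chloroplast, is reduced by OPR3 in the peroxisome and is shortened there to jasmonic acid. The hormone joined to isoleucine binds the receptor COI1, which leads to the loss of the JAZ repressors and frees MYC factors, and VSP1 and VSP2 are widely used readouts of this step. The pathway is known for the wound response of leaves and for stamen development, where plants without OPR3 or without both LOX3 and LOX4 are male sterile.

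Levels are given as FPKM (fragments per kilobase of transcript, scaled to the library's total), and a gene's level is the sum over its transcripts. Genes with a mean of at least 1 FPKM were tested with limma on log2(FPKM + 1), and genes with a p under 0.05 after Benjamini-Hochberg adjustment were called. Fold changes on that scale understate the change of low genes, and values after ± are standard deviations (SD, n = 3). The mutated gene itself, CDC5 (AT1G09770), averaged 37.1 ± 1.08 FPKM in the wild type and 21.3 ± 0.418 FPKM in the mutant, and was lower in every mutant library. Estimated depth lay between 19400000 and 26000000 fragments per library. The 5 leaf markers examined, among them the Rubisco and light-harvesting genes, averaged from 946 to 3784 FPKM in Col-0. All 10 floral organ markers were present as well, with Col-0 means from 17.1 to 191 FPKM, and so were all 8 anther and pollen coat markers, with means from 3.52 to 1081 FPKM. The label rosette leaves does not mention floral tissue.

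Most of the 10 genes were lower in cdc5, but not all steps moved the same way. All 10 genes passed the filter on low values. Of these, 6 fell (LOX3, LOX4, AOS, OPR3, VSP1 and VSP2), 3 rose (LOX2, AOC1 and AOC2) and LOX6 was not called. Over all 19778 genes tested, 22.4% were called lower and 33.3% higher, so a call in either direction was common (55.8%). Of all calls 59.8% were higher, against 50.3% after cyclic loess scaling and 49.6% after correction for gene length and GC. The size of the decreases was less common. All 6 genes that fell had a log2 fold change of -0.5 or less, and 8.25% of all genes tested were called lower by that much. The median log2 fold change of the 10 genes was -0.61, against 0.06 for all genes. The 10 genes were chosen with earlier results of these data known, so these contrasts with all genes are not an independent test. In each of the 10 genes the Col-0 and cdc5 values were fully separated, as in 63.6% of all genes tested. In bulk samples, fewer cells of a type and less RNA per cell cannot be told apart.

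**Figure D1:**
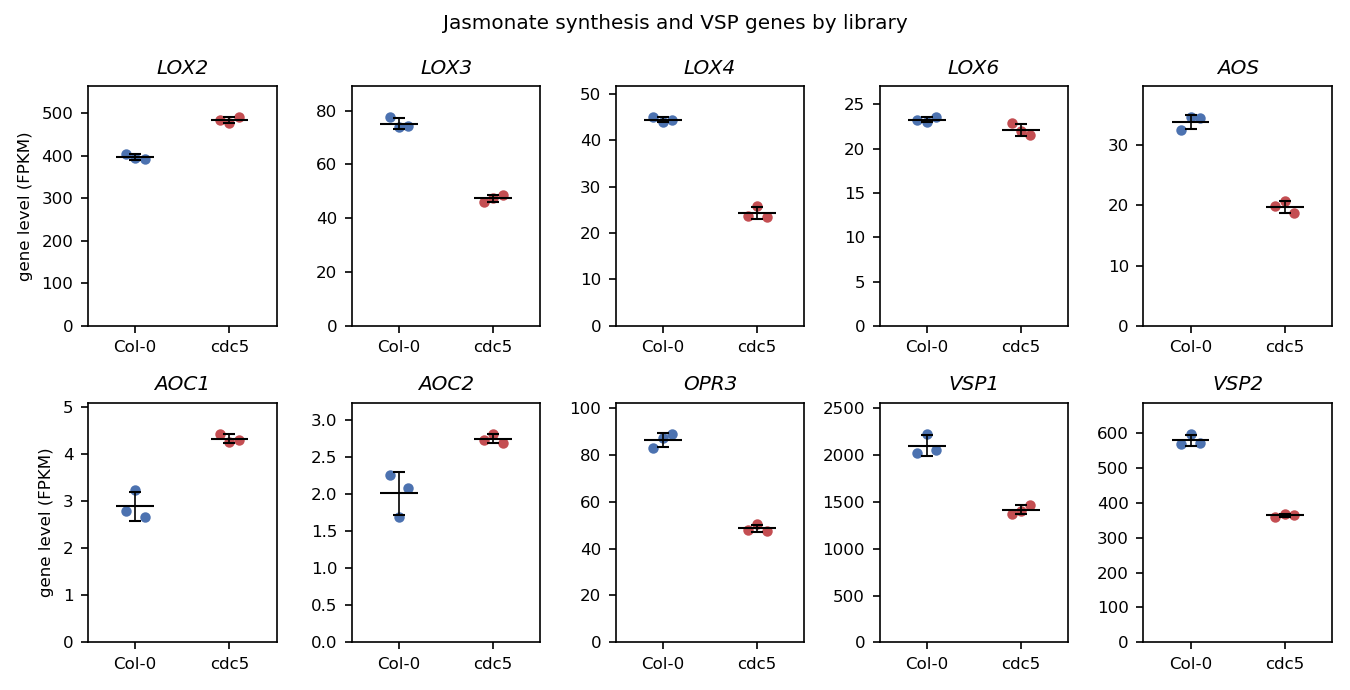
Gene level in FPKM (y axes start at 0) of each of the 10 genes in the 3 Col-0 (blue) and 3 cdc5 (red) libraries, with the mean and SD as bars. LOX2, AOC1 and AOC2 lie higher in cdc5, LOX6 is nearly level, and the other 6 lie lower.

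The lipoxygenases split. LOX2 (AT3G45140, chromosome 3, 16525245 to 16529352), the most abundant of them and the enzyme of the rapid jasmonate burst in wounded leaves, stood at 404, 393.6 and 392.6 FPKM across the wild-type libraries, against 483, 477.5 and 490 FPKM in cdc5. Every mutant library lay above every Col-0 library, and the rise was 1.22-fold (log2 fold change 0.28, SE 0.0276, limma adjusted p = 4.9e-05). Its size depended on scaling, at a log2 fold change of 0.41 after cyclic loess scaling and 0.12 after correction for gene length and GC, and it was called under both. LOX3 (AT1G17420, chromosome 1, 5977323 to 5981521) stood at 77.5, 73.8 and 74.2 FPKM across the wild-type libraries, against 46.1, 47.4 and 48.7 FPKM in cdc5, a fall to 63.0% of the Col-0 mean (log2 fold change -0.65, SE 0.0384, limma adjusted p = 3.2e-06). LOX4 (AT1G72520, chromosome 1, 27308513 to 27312756), the close relative that acts with LOX3 in stamens, fell furthest of the 10 genes. It went from 44.9, 43.9 and 44.3 FPKM to 23.6, 25.8 and 23.5 FPKM, or 54.8% of the Col-0 mean (log2 fold change -0.84, SE 0.047, limma adjusted p = 2.4e-06). The 3 values of each genotype lay close together for both genes. LOX6 (AT1G67560, chromosome 1, 25319804 to 25324581), known for the basal OPDA pool and for rapid responses near the xylem, stood at 23.2, 23.0 and 23.6 FPKM across the wild-type libraries, against 22.9, 22.0 and 21.5 FPKM in cdc5. That difference did not pass (log2 fold change -0.07, SE 0.0444, limma adjusted p = 0.21). It passed after cyclic loess scaling, at -0.14 (adjusted p = 0.024), and after correction for gene length and GC, at -0.24 (adjusted p = 0.0015), with a range of 0.0015 to 0.42 over the alternatives.

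As LOX2 rose while LOX3 and LOX4 fell, the make-up of the lipoxygenase transcripts differed between genotypes. The sum of the 4 genes was 540 ± 8.81 FPKM in Col-0 and 577 ± 5.76 FPKM in cdc5, or 107%. LOX2 made up 73.5 ± 0.125% of it in Col-0 and 83.7 ± 0.318% in cdc5. LOX3 went from 13.9 ± 0.151% to 8.21 ± 0.173% and LOX4 from 8.22 ± 0.0536% to 4.21 ± 0.26%. The libraries did not overlap in any of these shares. An exact permutation test (two-sided) gave p = 0.1 for each of the 10 shares tested within the lipoxygenase, AOC and VSP families, and 0.1 after adjustment over them. That is the smallest p that 3 libraries against 3 allow.

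**Figure D2:**
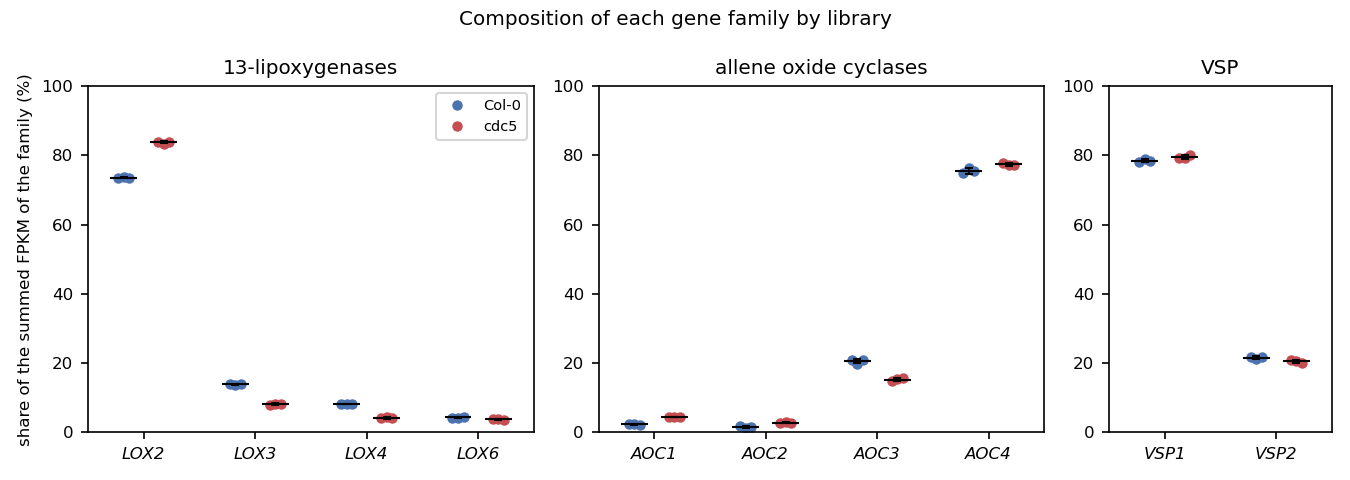
Share of each gene in the summed FPKM of its family, in percent, for the lipoxygenases LOX2, LOX3, LOX4 and LOX6, the 4 allene oxide cyclases and the 2 VSP genes, with 3 Col-0 (blue) and 3 cdc5 (red) libraries and the mean and SD as bars. LOX2 moves from 73.5% to 83.7% and AOC3 from 20.6% to 15.3%, while the 2 VSP genes keep nearly the same proportion.

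The single allene oxide synthase gene fell. AOS (AT5G42650, listed as CYP74A, chromosome 5, 17097564 to 17099595) encodes the cytochrome P450 that commits the lipoxygenase product to jasmonate and is a single gene in Arabidopsis. It stood at 32.5, 34.5 and 34.4 FPKM across the wild-type libraries, against 19.8, 20.7 and 18.8 FPKM in cdc5. Every mutant value lay below every Col-0 value, and the mean reached 58.4% of that in Col-0 (log2 fold change -0.75, SE 0.0507, limma adjusted p = 7e-06).

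The allene oxide cyclases moved in opposite directions along a row of neighbouring genes. AOC1 (AT3G25760, chromosome 3, 9403779 to 9405338) and AOC2 (AT3G25770, chromosome 3, 9406669 to 9408071) lie side by side on the plus strand, followed by AOC3 (AT3G25780). AOC1 stood at 2.78, 3.23 and 2.65 FPKM across the wild-type libraries, against 4.43, 4.26 and 4.30 FPKM in cdc5, or 149.9% of the Col-0 mean (log2 fold change 0.46, SE 0.0862, limma adjusted p = 0.0019). AOC2 stood at 2.26, 1.69 and 2.09 FPKM across the wild-type libraries, against 2.73, 2.82 and 2.70 FPKM in cdc5 (log2 fold change 0.32, SE 0.101, limma adjusted p = 0.025). Both were low, at an estimated 73.0 to 134 fragments per library for AOC1 and 42.6 to 95.1 for AOC2. The AOC2 call missed the threshold without Col-0 replicate 2 (adjusted p = 0.07), without cdc5 replicate 1, 2 or 3 (0.058, 0.068 and 0.05) and in a table of the most abundant transcript of each gene (0.051), with a range of 0.014 to 0.07 over the alternatives. AOC3 fell from 25.7 ± 0.438 to 14.7 ± 0.375 FPKM (log2 fold change -0.76, limma adjusted p = 3.4e-06). AOC4 (AT1G13280), the most abundant cyclase gene here, fell from 94.6 ± 4.80 to 74.8 ± 0.985 FPKM (log2 fold change -0.33, limma adjusted p = 2.1e-04). The 4 genes together went from 125.2 ± 5.01 to 96.6 ± 0.773 FPKM, so the rises of AOC1 and AOC2 concerned a small part of the cyclase transcripts. In that sum AOC1 went from 2.30 ± 0.176% to 4.48 ± 0.0563% and AOC3 from 20.6 ± 0.654% to 15.3 ± 0.474%.

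The cyclase genes are similar enough to ask whether reads could be misplaced. The coding sequences of AOC1 and AOC2 are 89.9% identical, and those of AOC1 and AOC3 81.5%. The most abundant transcripts were compared by pairs within the 4 AOC genes, the 2 VSP genes, and LOX2, LOX3, LOX4 and LOX6. No stretch of 150 bases, the read length, is identical in any pair. The minor transcripts were not compared. The sources used here do not say how reads were shared between copies. With AOC1, AOC2 and AOC3 summed as a single feature, the log2 fold change was -0.47 (limma adjusted p = 2.4e-05). That sum mostly follows AOC3, at a Col-0 mean of 25.7 FPKM against 2.89 for AOC1 and 2.01 for AOC2. It therefore cannot show whether the rises of AOC1 and AOC2 came from misplaced reads.

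OPR3 (AT2G06050, chromosome 2, 2359114 to 2362375), the reductase that carries OPDA into the peroxisomal steps of the pathway, had the second largest decrease. It stood at 83.0, 87.1 and 88.9 FPKM across the wild-type libraries, against 48.1, 50.2 and 47.3 FPKM in cdc5, a fall to 56.2% (log2 fold change -0.82, SE 0.041, limma adjusted p = 1.3e-06). The genotypes lay far apart relative to their spread. OPR1 (AT1G76680), a related reductase outside this step, fell from 17.5 ± 0.367 to 11.99 ± 0.979 FPKM (log2 fold change -0.51, limma adjusted p = 1.9e-04), and OPR2 (AT1G76690) at 3.82 and 3.21 FPKM was not called (adjusted p = 0.17). Among lipoxygenases of the other class, which oxygenate a different carbon of the fatty acid, LOX1 (AT1G55020) rose from 23.1 ± 1.27 to 33.7 ± 0.585 FPKM (log2 fold change 0.52, limma adjusted p = 4e-05). LOX5 (AT3G22400) was not called, at 4.24 and 4.29 FPKM (adjusted p = 0.89).

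The VSP genes, the output end of the set, were the most abundant and fell by similar amounts. VSP2 is an acid phosphatase with activity against insects and VSP1 is its close relative, and the genes lie near each other on the minus strand of chromosome 5. VSP1 (AT5G24780, 8507590 to 8509201) ranked 8 among all genes by mean FPKM in Col-0 and VSP2 (AT5G24770, 8500468 to 8502224) ranked 91. VSP1 stood at 2021, 2229 and 2053 FPKM across the wild-type libraries, against 1371, 1409 and 1466 FPKM in cdc5, a fall to 67.4% (log2 fold change -0.57, SE 0.0418, limma adjusted p = 1.1e-05). VSP2 stood at 567, 597.4 and 571.4 FPKM across the wild-type libraries, against 360, 368.1 and 365.1 FPKM in cdc5, a fall to 63.0% (log2 fold change -0.66, SE 0.0302, limma adjusted p = 7.4e-07). VSP1 made up 78.4 ± 0.414% of the pair in Col-0 and 79.5 ± 0.475% in cdc5. Their coding sequences are 88.1% identical, and summed as a single feature they gave a log2 fold change of -0.59 (limma adjusted p = 5.4e-06).

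Below the gene level, 4 of the genes have 2 listed transcripts each, and the proportion of these transcripts passed the test in 2 of them, VSP2 and OPR3. The test was limma's diffSplice with a Simes p per gene, which called 25.5% of the 5456 genes that could be tested. On simulated data with unequal spreads it made more false calls than its nominal rate. The other 6 genes have a single listed transcript. In VSP2 the fully spliced AT5G24770.1 fell with the gene, from 569 ± 15.3 to 344 ± 5.79 FPKM, while AT5G24770.2, which keeps the last intron, rose. AT5G24770.2 stood at 8.98, 10.8 and 8.59 FPKM across the wild-type libraries, against 17.7, 17.3 and 25.3 FPKM in cdc5 (log2 fold change 1.00, SE 0.169, limma adjusted p = 0.0098). Its share of VSP2 was 1.58%, 1.80% and 1.5% in Col-0 and 4.92%, 4.70% and 6.92% in cdc5 (diffSplice adjusted p = 1.5e-04, and between 8.5e-05 and 0.0061 under the alternatives). AT5G24770.2 is marked as significant in the authors' deposited table, with a fold of 2.13 and a q-value of 1.38e-06. There the mark goes with a q-value under 0.05 and a change of at least 2-fold. It is carried by 12.2% of all 45666 transcripts. Of the 14 transcripts of the set, only this one, AT2G06050.1 of OPR3 and AT3G45140.2 of LOX2 carry it. The main transcripts of the 6 genes that fell do not.

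The retained intron spans 93 bases (chr5:8500888-8500980), and the annotated coding sequence of AT5G24770.2 ends 4 bases into it. The coding length is 627 bases in AT5G24770.2 and 798 bases in AT5G24770.1. The splice sites of this intron are shown beside those of the first VSP2 intron, which both transcripts splice, and those of the last intron of VSP1. Sequences run 5′ to 3′ from TAIR10.1, with 10 exon bases in lower case and 20 intron bases in capitals.
VSP2 last intron, kept in AT5G24770.2, 5′ splice site, chr5:8500961-8500990, minus strand: tcatattgaaGTAAGAATATTCAAGTAGTT
VSP2 last intron, kept in AT5G24770.2, 3′ splice site, chr5:8500878-8500907, minus strand: GACTAAATATGGAAATGTAGgcctaatggt
VSP2 first intron, 5′ splice site, chr5:8501415-8501444, minus strand: atggatacggGTATATATACGCATAATTAT
VSP2 first intron, 3′ splice site, chr5:8501184-8501213, minus strand: TTTTTTTTTTGGATTCTTAGaacagagaag
VSP1 last intron, as in AT5G24780.1, 5′ splice site, chr5:8508023-8508052, minus strand: tcatactcaaGTAAGAATTAATCAAGTAGC
VSP1 last intron, as in AT5G24780.1, 3′ splice site, chr5:8507948-8507977, minus strand: GACTATATATGGAAACGCAGgccaaacgga

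In OPR3 the proportion moved toward AT2G06050.2, which starts further downstream and keeps an intron in the 5′ leader. AT2G06050.1 starts further upstream and splices a leader intron of 143 bases (chr2:2361984-2362126), whereas AT2G06050.2 holds that stretch within its first exon, and both have the same coding length of 1176 bases. As the transcripts differ both in start and in this intron, whether the change lay in start or in splicing was not tested. AT2G06050.1 stood at 8.06, 12.04 and 10.9 FPKM across the wild-type libraries, against 2.79, 2.80 and 2.21 FPKM in cdc5, or 25.1% of the Col-0 mean (log2 fold change -1.64, SE 0.167, limma adjusted p = 0.002). AT2G06050.2 fell less, from 76.0 ± 1.71 to 45.9 ± 1.31 FPKM (log2 fold change -0.71, limma adjusted p = 2.1e-04). The share of AT2G06050.1 was 9.72%, 13.8% and 12.3% in Col-0 and 5.80%, 5.57% and 4.67% in cdc5 (diffSplice adjusted p = 0.0038, and between 8.2e-04 and 0.022 under the alternatives). The authors' deposited table marks AT2G06050.1 as significant, with a fold of 0.251 and a q-value of 1.84e-21. The splice sites of the leader intron are shown in the same form.
OPR3 leader intron, spliced in AT2G06050.1, 5′ splice site, chr2:2362107-2362136, minus strand: aacaaaaccgGTAAACTCATCACAAACTTA
OPR3 leader intron, spliced in AT2G06050.1, 3′ splice site, chr2:2361974-2362003, minus strand: TTTACTTCTCCTTCTTCCAGatcggcggag

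For LOX2 and VSP1 the proportion of transcripts was not called. LOX2 transcript AT3G45140.2 uses a later 5′ splice site in the first intron and so keeps part of it. It stood at 0.645, 0.190 and 1.65 FPKM across the wild-type libraries, against 1.74, 9.62 and 2.65 FPKM in cdc5. The mutant mean rests largely on cdc5 replicate 2, and its level lay higher in every cdc5 library, but neither its level (limma adjusted p = 0.13) nor its share passed (diffSplice adjusted p = 0.22). In the authors' deposited table it is marked as significant, with a fold of 5.65 and a q-value of 0.0286. VSP1 transcript AT5G24780.2 varied widely within each genotype, at 44.8, 4.72 and 42.8 FPKM across the wild-type libraries, against 44.4, 10.2 and 10.3 FPKM in cdc5 (limma adjusted p = 0.84). Of the 14 transcripts, 7 were called lower and 3 higher, against 13.2% lower and 17.8% higher among all 27441 transcripts tested.

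**Figure D3:**
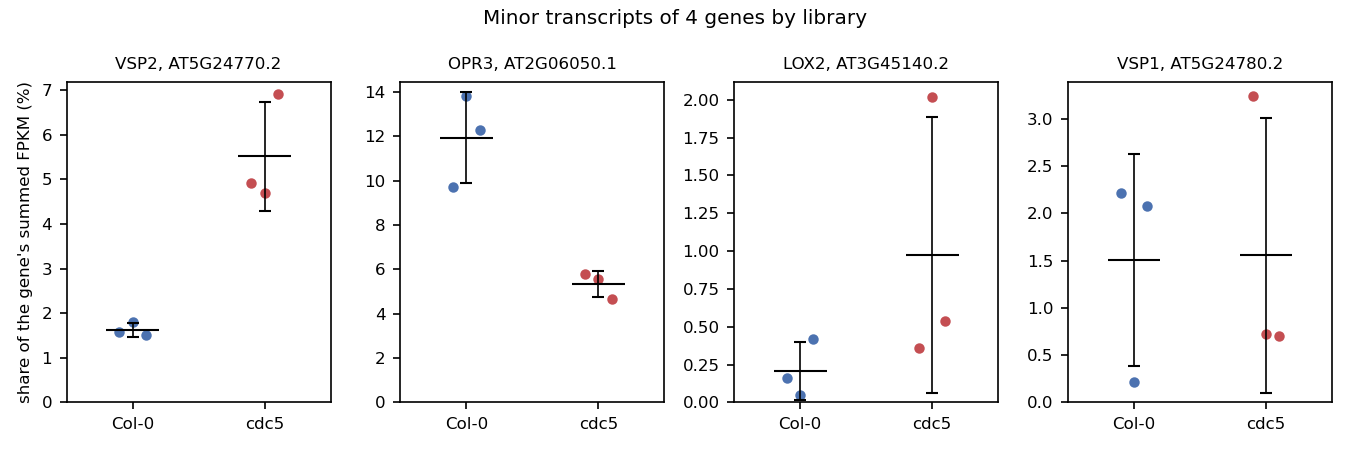
Share of 1 minor transcript in the summed FPKM of its gene, in percent, for VSP2, OPR3, LOX2 and VSP1 in 3 Col-0 (blue) and 3 cdc5 (red) libraries, with the mean and SD as bars and a separate y axis from 0 for each gene. The intron-holding VSP2 transcript is higher in all cdc5 libraries, the leader-spliced OPR3 transcript is lower in all of them, and the LOX2 and VSP1 transcripts overlap.

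The promoters of genes that moved together were read for the letters that MYC factors and related proteins are known to bind. The 250 bases before the start of the most abundant transcript were searched on both strands. The motif CACGTG, known as the G-box, reads the same on both strands. The motif CACATG is a variant of it. A further variant is AACGTG. The ethylene response factor motif GCCGCC was searched for comparison, and no match was shared by different motifs. CACGTG was found in AOS and OPR3 and in 6.91% of the 25012 promoters of nuclear protein-coding genes. CACATG was found in LOX2 and LOX3 (11.1% of all promoters), AACGTG in LOX4, AOC1 and VSP1 (7.58%) and GCCGCC in none of the 10 (1.86%). Genes that fell and genes that rose are both among those with a match. In AOS the G-box lies 6 to 1 bases before the start. In OPR3 it lies 108 to 103 bases before the start of AT2G06050.2, within the first exon of AT2G06050.1, so that window is not printed. The promoters of the falling AOS, VSP1 and VSP2 genes and of the rising LOX2 gene are printed from TAIR10.1 in the direction of transcription, ending 1 base before the start, with matches in capitals.
AOS promoter, chr5:17099596-17099845, minus strand: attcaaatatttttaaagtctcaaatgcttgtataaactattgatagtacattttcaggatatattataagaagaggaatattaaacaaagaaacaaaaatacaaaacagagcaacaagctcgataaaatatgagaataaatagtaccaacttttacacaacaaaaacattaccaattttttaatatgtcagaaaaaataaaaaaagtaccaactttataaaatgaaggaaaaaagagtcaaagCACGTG
VSP1 promoter, chr5:8509202-8509451, minus strand: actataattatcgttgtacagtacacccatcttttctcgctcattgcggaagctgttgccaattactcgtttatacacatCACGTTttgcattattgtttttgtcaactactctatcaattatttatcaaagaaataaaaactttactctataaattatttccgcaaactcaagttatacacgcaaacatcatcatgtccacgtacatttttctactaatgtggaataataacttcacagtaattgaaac
VSP2 promoter, chr5:8502225-8502474, minus strand: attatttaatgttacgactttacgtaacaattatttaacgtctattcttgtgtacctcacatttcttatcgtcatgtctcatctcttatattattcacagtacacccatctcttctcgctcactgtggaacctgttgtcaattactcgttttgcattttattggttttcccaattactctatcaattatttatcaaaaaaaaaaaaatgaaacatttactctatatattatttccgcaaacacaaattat
LOX2 promoter, chr3:16524995-16525244, plus strand: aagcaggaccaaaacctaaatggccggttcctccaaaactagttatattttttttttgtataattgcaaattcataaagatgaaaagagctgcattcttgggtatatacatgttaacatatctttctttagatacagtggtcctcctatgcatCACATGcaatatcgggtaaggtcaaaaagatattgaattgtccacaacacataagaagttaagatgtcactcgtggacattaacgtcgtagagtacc

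Other steps of hormone synthesis were mixed. The counts in this and the next paragraphs stand beside 22.4% called lower and 33.3% called higher over all genes tested. Of the 8 genes listed for OPDA transport and peroxisomal shortening, all tested, 4 fell and 1 rose, with a median log2 fold change of -0.09. OPCL1, the ligase that activates the OPR3 product, fell from 109 ± 1.95 to 72.6 ± 2.40 FPKM (limma adjusted p = 4.5e-06), and the thiolase gene KAT2 from 148 ± 2.21 to 119 ± 2.92 FPKM (adjusted p = 6.8e-05). OPCL1 was not called when the level was that of its most abundant transcript (log2 fold change 0.01, adjusted p = 0.93). The acyl-CoA oxidase gene ACX5 rose from 10.2 ± 0.343 to 17.4 ± 1.21 FPKM (adjusted p = 2.9e-05). Of 7 genes that desaturate or release the fatty acid, 5 were tested, 2 rose and 1 fell (median 0.19). The 2 were the chloroplast desaturase gene FAD7 and FAD3, at 114.1% and 115.3% of Col-0, and the gene that fell was FAD2, the desaturase of the endoplasmic reticulum, which went to 73.9%. The FAD7 call ended with length and GC corrected for (log2 fold change 0.06, adjusted p = 0.12, range over alternatives up to 0.12).

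Among genes of conjugation and perception, 1 rose and 2 fell of 4 tested. The receptor gene COI1 rose from 14.3 ± 0.538 to 19.4 ± 0.906 FPKM (limma adjusted p = 2.6e-04), and MYC3 fell from 22.9 ± 0.476 to 18.5 ± 1.13 FPKM (adjusted p = 0.0017). JAR1, which joins the hormone to isoleucine, fell from 58.9 ± 1.68 to 50.6 ± 2.11 FPKM (adjusted p = 0.0027), but not by its most abundant transcript (log2 fold change 0.03, adjusted p = 0.91). MYC2 was listed at or near 0 in every library, which can be a failed estimate. Of 12 JAZ repressor genes 11 were tested, 5 fell and none rose, with a median of -0.20. By the most abundant transcript 4 were lower and 1 higher, the latter being JAZ9, which turned from a log2 fold change of -0.20 (adjusted p = 0.002) to 0.52 (adjusted p = 0.022). JAZ5 was called lower by the summed level (log2 fold change -0.26, limma adjusted p = 0.015). Over the alternatives its log2 fold change ran up to 0.10 and its adjusted p up to 0.83. JAZ6 and JAZ10 were not called, but their limma adjusted p reached 0.0087 and 0.015 under an alternative. JAZ8 fell from 4.98 ± 0.758 to 2.14 ± 0.613 FPKM (adjusted p = 9.6e-04) and JAZ7 from 7.98 ± 0.690 to 4.42 ± 0.361 FPKM (adjusted p = 1.3e-04). Of 11 turnover genes 9 were tested, 5 fell and none rose (median -0.23). They include ST2A, a sulfotransferase of hydroxyjasmonate, which fell to 47.1% of 6.79 FPKM (adjusted p = 5.2e-05), and CYP94B3, an oxidase of the active hormone, which fell to 47.1% of 1.99 FPKM (adjusted p = 0.0025).

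Of 5 other jasmonate output genes tested, 3 were called higher and none lower. The chlorophyllase gene CLH1 was not called (log2 fold change -0.10, limma adjusted p = 0.065), but was called lower with length and GC corrected for (-0.13, adjusted p = 0.025) and without Col-0 replicate 1 (-0.13, adjusted p = 0.021). The thionin gene THI2.1 rose 1.52-fold (limma adjusted p = 4.9e-06), and CORI3, a cystine lyase gene, went from 21.1 ± 2.61 to 36.3 ± 5.38 FPKM (adjusted p = 0.0039). CORI3 did not pass by its most abundant transcript (log2 fold change 0.44, adjusted p = 0.56). JR1, a jacalin-like lectin gene, rose 1.28-fold (adjusted p = 0.019) but was lost on leaving out any Col-0 replicate or cdc5 replicate 3 (adjusted p from 0.062 to 0.073). Of 6 genes of the branch shared with ethylene, 4 are listed and none reached 1 FPKM on average.

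**Figure D4:**
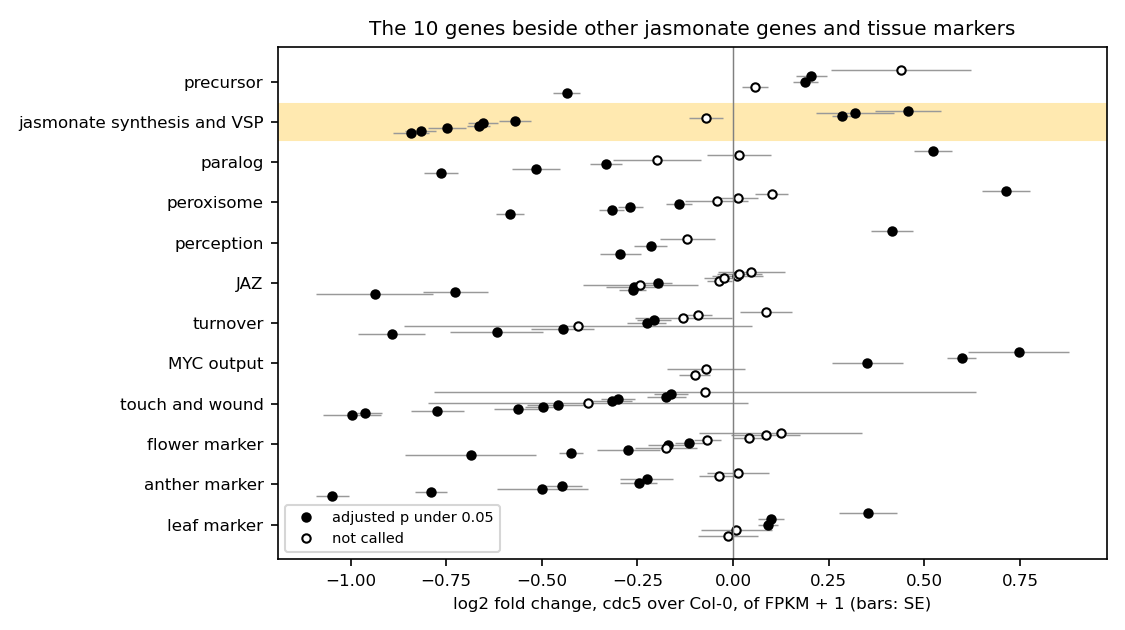
Log2 fold change of FPKM + 1, cdc5 over Col-0, for every tested gene of each list, with the SE as bars. Filled points passed at an adjusted p under 0.05 and open points did not; the shaded row holds the 10 genes, of which 6 lie at -0.5 or less and 3 above 0.

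The summed levels of floral, anther and touch-response genes were lower in cdc5, with members that differed among themselves. The summed level of the 10 floral organ markers was 837 to 896 FPKM in Col-0 and 716 to 732 FPKM in cdc5, or 83.4%, with 5 of 10 called lower and none at 0. The count was 2 of 10 on leaving out cdc5 replicate 3 or either of Col-0 replicates 1 and 3, 2 of 10 with 1 called higher without cdc5 replicate 2, and 3 of 10 after loess scaling or without trend and robust moderation. The petal and stamen genes PI and AP3 stood at 61.7% (limma adjusted p = 0.024) and 74.3% (adjusted p = 1.1e-05) of Col-0. PI went from 191 ± 32.4 to 118 ± 15.8 FPKM and AP3 from 140 ± 3.08 to 104 ± 0.741 FPKM. Most of the fall in the floral sum came from PI and AP3. Over the alternatives the limma adjusted p of PI ran up to 0.11. The floral markers SEP1, SHP1 and STK stood at 103%, 106.6% and 111.4% and were not called, nor were AP1 and SEP3. The 8 anther and pollen coat markers summed to 2558 to 2932 FPKM in Col-0 and to 1939 to 2000 FPKM in cdc5, or 70.9%, with 6 of 8 called lower. That count was 4 of 8 without cdc5 replicate 3. It was 5 of 8 after loess scaling, without trend and robust moderation, with a replicate block or by the most abundant transcript. Leaving out replicate 1 or 2 of either genotype also gave 5 of 8. The pollen coat lipase gene EXL4 fell to 48.2% (limma adjusted p = 4.3e-07), while the anther genes MS2 and MYB80 stood at 97.5% and 101.2% and were not called (adjusted p = 0.54 and 0.9). The 12 early touch and wound genes summed to 602 to 701 FPKM in Col-0 and to 450 to 506 FPKM in cdc5, or 73.8%, with 10 of 12 called lower. Under the alternatives that count ran from 9 to 11. For comparison, 22.4% of all genes tested were called lower and 33.3% higher. The ethylene response factor gene ERF109 fell to 50.6% (adjusted p = 1e-06). The 5 leaf markers summed to 9515 to 11244 FPKM in Col-0 and to 11235 to 11489 FPKM in cdc5, or 111%, with 3 of 5 called higher. Only 1 was called higher without Col-0 replicate 3 or without trend and robust moderation, and 1 was higher and 1 lower by the most abundant transcript. Whether these changes had a part in those of the 10 genes was not tested.

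**Figure D5:**
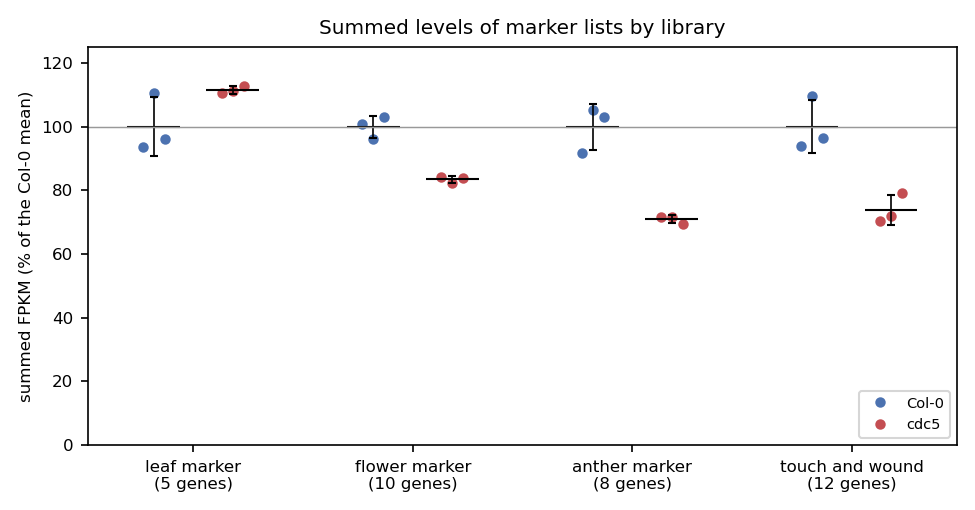
Summed FPKM of 4 marker lists in each of 3 Col-0 (blue) and 3 cdc5 (red) libraries, as a percentage of the Col-0 mean, with the mean and SD as bars. The flower, anther and touch lists are lower in every cdc5 library, at 83.4%, 70.9% and 73.8% on average, and the leaf list overlaps between genotypes.

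The pattern of the 10 genes over the 6 libraries was shared by many others. The profile used was the mean of their standardized log2 levels, which lies higher in Col-0 because more of the genes fell than rose. Of 19768 other genes, 2000 had a Pearson correlation of at least 0.95 with it over the 6 libraries, which share the difference in genotype. The 5 closest were AT4G30460, AT1G01310, AT1G75300, AT1G43580 and AT4G33640, with correlations from 0.9987 to 0.9995. Their levels in cdc5 were 68.4%, 33.3%, 57.4%, 82.9% and 77.7% of those in Col-0, in the same order.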

How the data were processed

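The deposited table lists, for every transcript, the authors' FPKM in each of the 6 libraries. Its fold (ratio), log2 ratio, p-value and q-value columns are the authors' own comparison of cdc5 with Col-0. The fold column equals the ratio of mean FPKM within 0.001 (relative) in all 41525 transcripts above 0 in both genotypes. Per the labels' protocols, polyadenylated RNA was made into dUTP-marked (stranded) libraries and sequenced as read pairs of 150 bases. Without giving roles, the submitters' processing notes list HISAT2 2.0.4 and StringTie 1.3.4d, cutadapt 1.9, and edgeR and DESeq2, and a mouse build that cannot apply. Of 27696 nuclear genes, 97.8% have the span given by the TAIR10.1 annotation, among them all 10 genes described here, so sequences and exons come from RefSeq's TAIR10.1.

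Gene FPKM sums were tested with limma 3.58.1 (R 4.3.3) on log2(FPKM + 1) over all 6 libraries, with trend and robust moderation, a filter at a mean of 1 FPKM and adjustment over all genes tested. The fit was tested on simulated data. Depth was estimated from steps between low FPKM values of sole transcripts of at least 600 bases, 68.8% to 72.5% of which lay within 0.1 of a whole multiple (20% for a step not fitted). This was too few to recover counts. A level of 3 fragments over 1 kilobase is then 0.116 to 0.154 FPKM, counting error only. Genes outside the 10 were named as the family relatives, up to 4 per list with the smallest adjusted p, CDC5, and the 5 of most similar profile. MS2, MYB80, MYC2, AP1, SEP1, SEP3, SHP1, STK, JAZ5, JAZ6 and JAZ10 were named after their values were seen. The members and lists were chosen with earlier results of these data known. Alternatives were another pseudocount (0.1), filter (none or 5 FPKM), scaling, moderation, gene level, a replicate block and leaving out each library. Coding identity came from global alignment with Biopython 1.88.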

Additional observations from a re-analysis of the deposited data

How the results depend on the processing

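The 6 decreases (LOX3, LOX4, AOS, OPR3, VSP1 and VSP2) and the increase of LOX2 kept their direction and their call under every alternative run. At the gene level AOC1 did so wherever it was tested, and AOC2 kept its direction. A filter at 5 FPKM removed AOC1 and AOC2, which left 1 gene called higher in place of 3. With LOX6 called, 7 genes were lower after cyclic loess scaling or length and GC adjustment. These scalings changed the calls over all genes from 6594 higher and 4433 lower to 5197 and 5145 (loess) and 5160 and 5241 (length and GC), or from 59.8% higher to 50.3% and 49.6%. With a replicate block the counts were 6345 and 4289, and 3 higher and 6 lower among the 10 genes. In the fit of single transcripts, where 3 were called higher, AT3G25760.1 (AOC1) missed the threshold with the block (adjusted p = 0.089), and 2 were called higher also after loess scaling, with the filter at 5 FPKM, and without Col-0 replicate 1 or 3 or any cdc5 replicate. Deviations of same-numbered libraries correlated at 0.043, 0.059 and 0.004. Not every library correlated best with its own number (Col-0 replicate 3 did so with cdc5 replicate 1), and the labels give no pairing. At an authors' q-value under 0.05, 4 of the 14 transcripts were higher and 8 lower. The share of all transcripts at that threshold was not computed, so these counts have no background beside them.

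Some values changed sign, called ones among them. LOX5 gave a log2 fold change of 0.015 as reported, -0.066 after loess scaling, -0.102 after length and GC adjustment, and from -0.037 to 0.052 when single libraries were left out. VSP1 transcript AT5G24780.2 ranged from -1.32 to 0.18 without single libraries. By the most abundant transcript, OPCL1 gave 0.011, JAR1 0.034 and JAZ9 0.518 (called higher), against -0.58, -0.21 and -0.20 for the summed level, all called lower. Over the alternatives the leaf marker RCA, called higher at 0.09, ran down to -0.35. JAZ5, called lower at -0.26, ran up to 0.10. The cause was not tested. Depth limits AOC1 and AOC2, the only 2 of the 10 genes under 5 FPKM.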
